A study of Mus musculus with 12 samples.

Results

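Needled, bupivacaine-injured muscle was compared with saline-injected muscle over every expressed gene, with most room given to genes and functions other than the common markers of macrophages, cell division and extracellular matrix. The members are the 3 needled and the 3 saline libraries, 6 of the 12 libraries of the study, found by the column names of the deposited count table. All were made from messenger RNA of the gastrocnemius, a calf muscle, of wild type C57BL/6 mice 6 to 7 months old. The other 6 libraries came from untouched muscle and from bupivacaine-injured muscle that was not needled.

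Saline muscle had only the vehicle injected. Needled muscle was first injected with bupivacaine, a local anaesthetic that kills muscle fibres, and was treated by acupuncture needling 24 hours afterwards. The groups therefore differ by the drug and by the needling, and within this comparison the effects of these cannot be told apart. Whether the libraries of a group came from different mice was not given in the sources used here, and neither was the time of tissue collection. The p-values therefore describe the spread between libraries, which may be technical in part.

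After bupivacaine kills fibres, phagocytes clear the debris while muscle stem cells divide, fuse and build new fibres. Adult fibres make their own forms of many common proteins, such as the elongation factor Eef1a2 where most other cells use Eef1a1. In bulk tissue, fewer cells of a type and less RNA per cell cannot be told apart.

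Needled muscle differed from saline muscle in 4556 of 15715 genes tested, 29.0% of them, by edgeR's quasi-likelihood test at a Benjamini-Hochberg adjusted p under 0.05. Of these genes 2853 were higher in needled muscle (18.2% of those tested) and 1703 were lower (10.8%). The increases were mostly of transcripts scarce in saline muscle, with a median of 4.82 CPM (counts scaled to library size by the TMM method) there against 12.1 CPM in needled muscle, and 1705 of them were at least 2-fold. The decreases were mostly of abundant transcripts, with a median of 58.7 CPM against 43.1 CPM, and only 120 of them reached 2-fold. Summed over the genes called lower, the level went from 498470 to 325977 CPM, and over those called higher from 45793 to 95667 CPM. In raw counts, the genes called lower held 46.4 to 49.7% of the saline and 33.4 to 40.2% of the needled libraries. The genes called higher held 4.05 to 4.58% and 9.01 to 13.9%. Because these sums and shares are taken over genes chosen by the test, they describe the calls and are no further test. The saline and needled libraries did not overlap in 7584 genes, 48.3% of those tested.

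The direction of the calls followed the level of the gene. Among the 3143 genes with the highest mean level, at 46 CPM or more, 10.3% were called higher and 28.5% lower. Among the 3143 genes between 1.62 and 7.05 CPM, 26.5% were called higher and 3.98% lower. A group of 2004 genes stayed under 1 CPM in every saline library, and 509 of these were called higher and 20 lower. The log2 difference of the median gene was -0.04.

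**Figure D1:**
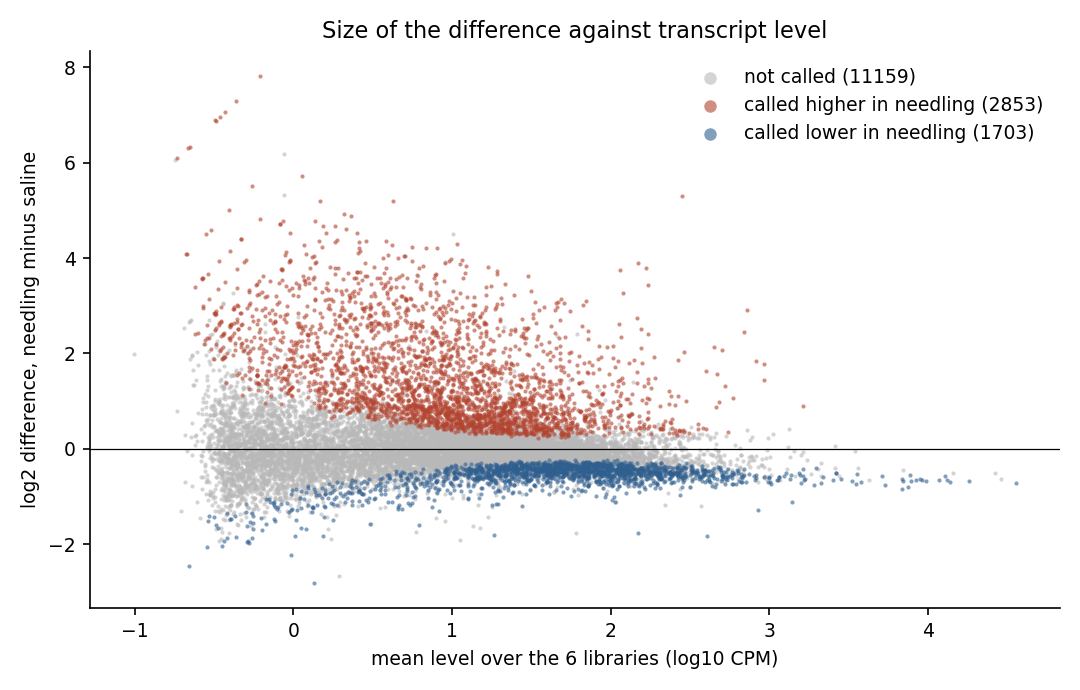
Each point is 1 of 15715 genes tested, with its mean level (log10 CPM) on the horizontal axis and its log2 difference, needled minus saline, on the vertical axis. Coloured points are the 2853 genes called higher and the 1703 called lower, and the lower calls crowd the right of the plot, where the difference is small and the level high.

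The libraries held 16385233 to 20667289 counts in saline muscle and 21379763 to 24259181 in needled muscle. On the first principal component, which held 71.5% of the variance, the saline libraries lay at -72.41 to -38.92 and the needled ones at 37.93 to 67.45, with saline replicate 1 and needling replicate 2 outermost. Macrophage markers were called higher in 19 of 20 genes, and their summed level was 306.6 to 680.6 CPM in saline and 2572 to 3640 CPM in needled libraries. Cell division markers were called higher in 20 of 20 (62.9 to 90.4 against 318.7 to 454.9 CPM) and matrix genes in 16 of 20 (1926 to 2534 against 5039 to 6990 CPM). Mature fast fibre genes were called lower in 7 of 12, from 156133 to 179536 CPM in saline to 80324 to 123470 CPM in needled libraries, and in 2 of 12 without needling replicate 2 and 3 or 4 without 1 of the saline libraries. These fibre genes were abundant in both groups, which checks that the tissue was skeletal muscle but not which muscle it was. Of 10 neutrophil and 10 lymphocyte markers only 3 and 2 passed the low-count filter. The neutrophil markers summed to 0.321 to 1.52 CPM in saline and 6.94 to 10.4 CPM in needled libraries, with Csf3r called higher (3.39, adjusted p = 0.012), S100a8 and S100a9 not called and 2 of the 10 listed at 0 in every saline and needled library. Of the markers of residents other than fibres, 5 of 10 endothelial and 4 of 10 pericyte and smooth muscle genes were called lower, none higher, and 1 of 12 fibro-adipogenic progenitor genes was called higher. Schwann cell markers had 2 higher and 2 lower of 10, adipocyte markers 0 and 2 of 8, and of 6 mast cell, 5 red blood cell and 1 skin marker tested none was called. These smaller counts depended on single libraries. The endothelial count fell to 1 without needling replicate 1, 2 without saline replicate 1 or 2 and 3 without needling replicate 3, and the progenitor call was lost without any 1 of the saline libraries or needling replicate 2. The 2 higher Schwann cell calls were lost without saline replicate 2 or 3 or needling replicate 2, and the 2 adipocyte calls without saline replicate 1 or 2 or needling replicate 1. The part of these cell types in the results that follow was not tested.

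Fibre forms of common proteins and their general forms moved in opposite directions in many pairs. Of 25 pairs of a fibre form and a general partner, the fibre form fell and the partner rose in 17, and no fibre form was called higher. Fibre forms were called lower in 21 of 25 pairs. Partners were called higher in 19 and lower in 2, the mitochondrial subunit Cox7a2 (log2 difference -0.43) and the smooth muscle myosin kinase Mylk (-0.61). The pairs were put together with earlier results of these data known, so their count is a description. It depended on single libraries, with both genes of a pair called in 4 pairs without needling replicate 2, in 8, 8 and 7 without saline replicates 1, 2 and 3, in 11 without needling replicate 1 and in 16 without needling replicate 3. In the fit that left out needling replicate 2, 9 fibre forms were called lower and 14 partners higher. The calls of Cox7a2 and Mylk were each lost without at least 1 of saline replicates 1, 2 and 3 and needling replicates 1, 2 and 3, with highest adjusted p of 0.107 and 0.101 in that order.

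Translation genes gave such pairs at high levels. Eef1a2 (ENSMUSG00000016349, mm10 chromosome 2, 181147653 to 181157014), the elongation factor of adult muscle and neurons, had 1777, 2130 and 1964 CPM in saline and 1381, 1058 and 1519 CPM in needled libraries. Eef1a1 (ENSMUSG00000037742, chromosome 9, 78478449 to 78489151), the form of most other cells, had 405.1, 580.3 and 518.4 CPM in saline and 1423, 1528 and 1110 CPM in needled libraries. The saline and needled libraries did not overlap at either gene, with Eef1a2 lower and Eef1a1 higher in all needled ones. Eef1a2 fell by 0.57 ± 0.17 on the log2 scale (SE; edgeR adjusted p = 0.0249), and Eef1a1 rose by 1.43 ± 0.19 (edgeR adjusted p = 0.000188). Per length, Eef1a1 made up 16 to 18.6% of the summed FPKM of the pair in saline, 24.6 to 36.1% in injured and 37.9 to 54.7% in needled libraries. Leaving out any 1 of saline replicates 2 and 3 and needling replicates 1 and 2 ended the call of Eef1a2, at adjusted p of up to 0.0958.

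Rpl3l, the ribosomal protein L3 made in skeletal muscle and heart, and Rpl3, its counterpart elsewhere, moved the same way. Rpl3l had 521.8, 601.2 and 533.5 CPM in saline and 345.3, 252.5 and 372.6 CPM in needled libraries. Rpl3 had 78.5, 92.6 and 105.5 CPM against 261.1, 300.8 and 201.6 CPM. All needled libraries lay below all saline libraries for Rpl3l and above them for Rpl3, with log2 differences of -0.77 ± 0.16 (adjusted p = 0.00336) and 1.46 ± 0.23 (adjusted p = 0.00068). Rpl3's share of the pair's FPKM was 7.22 to 9.29% in saline and 21.9 to 38.1% in needled muscle, with injured muscle between at 12.4 to 20.4%. The RNA helicases of cap-dependent initiation did likewise, with Eif4a2 at -0.35 and Eif4a1 at 1.02, and Eif4a1's share was 23 to 28.8% in saline and 42.4 to 53.4% in needled muscle. Reads of processed pseudogenes and of the parent gene cannot be told apart for Eef1a1 and Rpl3, and Rpl3-ps1, a copy of Rpl3, was itself called higher at 1.53. The call of Eif4a2 was lost without 1 of saline replicates 1, 2 and 3 and needling replicates 1 and 2, with adjusted p of up to 0.134.

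Among energy enzymes, the abundant fibre form of creatine kinase fell and its scarce partner rose. Muscle creatine kinase, Ckm, which regenerates ATP from phosphocreatine in fibres, had 12785, 11864 and 11017 CPM in saline and 8858, 5443 and 8136 CPM in needled libraries. Brain-type creatine kinase, Ckb, had 8.66, 11.3 and 10.8 CPM against 34, 33.3 and 25.2 CPM. The groups were apart for both, with log2 differences of -0.67 ± 0.21 (adjusted p = 0.0314) and 1.59 ± 0.21 (adjusted p = 0.000195). The partner stayed a trace of the pair by length, at 0.0681 to 0.0984% of the FPKM in saline and 0.31 to 0.613% in needled muscle. The enzymes that make creatine, Gatm and Gamt, rose by 1.90 and 0.52. At least 1 of saline replicates 1, 2 and 3 and needling replicates 1 and 2, when left out, ended each of the calls of Ckm and Gamt, and the highest adjusted p were 0.104 and 0.135 in that order.

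The starts of both creatine kinase genes are shown as those of 1 pair that moved in opposite directions. They are RefSeq promoters of build GRCm38.p6 from 250 bases before to 50 after the start, Ckm at chr7:19410844-19411143 on the plus strand and Ckb at chr12:111672289-111672588 on the minus strand. Capitals mark CANNTG (the E-box bound by MyoD family factors) in Ckm and CCAAT (the core bound by NF-Y) in Ckb.
Ckm: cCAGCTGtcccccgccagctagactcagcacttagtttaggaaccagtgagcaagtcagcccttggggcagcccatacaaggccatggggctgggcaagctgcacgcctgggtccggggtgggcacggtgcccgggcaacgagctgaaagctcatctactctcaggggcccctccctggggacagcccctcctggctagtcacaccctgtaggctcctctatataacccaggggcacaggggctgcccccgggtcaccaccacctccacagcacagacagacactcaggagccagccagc
Ckb: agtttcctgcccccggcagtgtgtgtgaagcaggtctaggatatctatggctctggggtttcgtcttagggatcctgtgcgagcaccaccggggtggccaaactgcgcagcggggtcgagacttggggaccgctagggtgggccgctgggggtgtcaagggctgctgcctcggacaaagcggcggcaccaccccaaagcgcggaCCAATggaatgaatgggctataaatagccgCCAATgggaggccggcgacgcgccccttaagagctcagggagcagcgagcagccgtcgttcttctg
Both strands were searched for both motifs, and no match of one overlaps a match of the other in these windows. Ckm held 1 E-box and 0 NF-Y core matches, and Ckb held 0 and 2 of them. The E-box letters were present in 72.3% and the NF-Y core in 37.4% of all 32851 promoters in the table, so each match describes the letters alone.

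Further pairs covered glycolysis, adenine nucleotides, mitochondria and contraction. Glycolytic enzymes fell in their muscle forms and rose in their general forms for phosphoglycerate mutase (Pgam2 -0.66, Pgam1 1.56), enolase (Eno3 -0.75, Eno1 1.05), glycogen phosphorylase (Pygm -0.85, Pygb 0.57) and phosphofructokinase (Pfkm -0.74, Pfkl 0.65). The purine nucleotide cycle, which recycles AMP in working fibres, did so for AMP deaminase (Ampd1 -0.59, Ampd2 0.54) and adenylosuccinate synthase (Adssl1 -0.62, Adss 0.55). The ADP/ATP carriers of the inner mitochondrial membrane followed, with Slc25a4 at -0.67 and Slc25a5 at 1.31. The kinase Akt2, which carries the insulin signal to glucose uptake, was at -0.39 and its relative Akt1, tied to growth, at 0.66, and Akt1's share of the pair's FPKM was 24.7 to 29.4% in saline and 41 to 45.3% in needled muscle. Ceramide synthase 1, Cers1, the form of muscle and brain, fell by 0.83 and Cers6 rose by 2.33, from 1.56 to 4.19% of the pair to 16.8 to 30.6%. Cers1 shares 1349 bases with Gdf1, whose reads cannot be told apart from it without strand. Pygb, Pfkl, Ampd1, Ampd2, Adssl1, Adss, Akt2 and Cers1 each lost their call on leaving out at least 1 of saline replicates 1, 2 and 3 and needling replicates 1, 2 and 3, with highest adjusted p of 0.0717, 0.0716, 0.156, 0.161, 0.0759, 0.0923, 0.0893 and 0.0891 in that order.

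Some pairs did not move as the others did. The actin-severing cofilin of muscle, Cfl2, was at -0.13 (adjusted p = 0.393), and the partner alone, Cfl1, rose by 1.93. Filamin C, Flnc, varied between 916 and 1929 CPM among the 9 saline, injured and needled libraries with no order by group, and its log2 difference was -0.18 ± 0.73. The glucose transporter of muscle and fat, Slc2a4, fell by 0.69, and the widespread Slc2a1 was at 0.31 (adjusted p = 0.226). In the pair of AMP kinase subunits Prkag3 and Prkag1 neither gene was called. Without needling replicate 2 the call of Slc2a4 was lost, at an adjusted p of 0.0527.

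**Figure D2:**
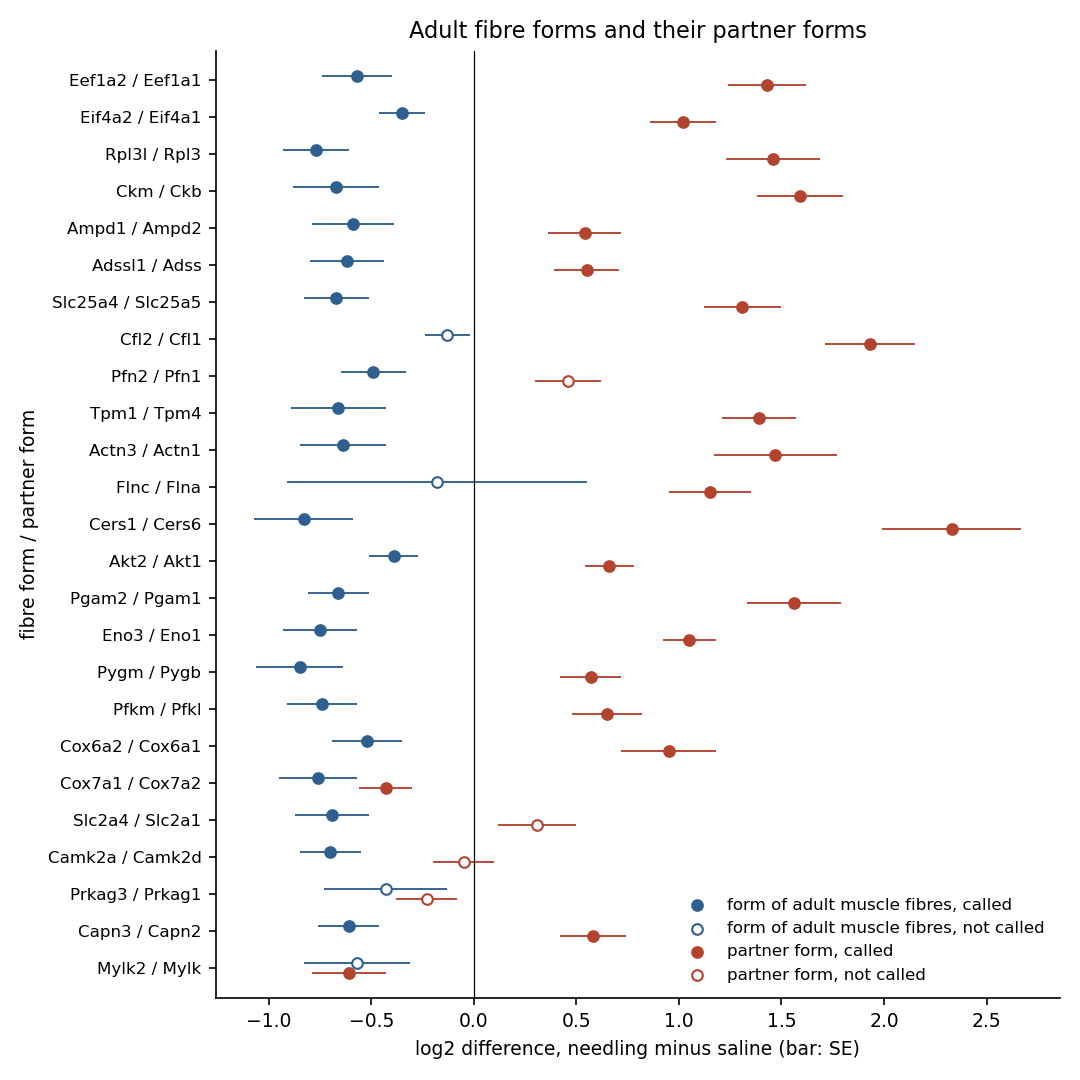
For 25 pairs, points give the log2 difference, needled minus saline, of the fibre form and of the general partner, and bars give 1 SE from the fit, with filled points for called genes. Fibre forms sit left of 0 and most partners right of it, with Cox7a2 and Mylk among the partners on the left.

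Genes that shape the cell's actin network rose together. Of 28 genes for actin nucleation and remodelling, 23 were called higher and 1 lower, against 18.2% higher and 10.8% lower over all genes, with a median log2 difference of 1.43. Coro1c (ENSMUSG00000004530, chromosome 5, 113842436 to 113908758), a coronin that controls turnover of branched actin at the cell edge, had the smallest adjusted p of all genes. It had 14.7, 15.6 and 17 CPM in saline and 55.3, 60.4 and 45.7 CPM in needled libraries. The gap between the groups was wide beside the spread within them, and the log2 difference was 1.77 ± 0.13 (edgeR adjusted p = 6.56e-05). Coro1c overlaps the predicted gene Gm17122.

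The branched-actin nucleator Arp2/3 rose in its subunits Arpc1b (1.92), Arpc5 (1.61), Actr3 (1.16), Actr2 (0.96), Arpc3 (0.85) and Arpc2 (0.78). The monomer-binding thymosins Tmsb10 and Tmsb4x rose by 2.75 and 1.63, the bundling protein Fscn1 by 1.97, and the formin Diaph3, which acts in cell division, by 3.11. Lcp1 (2.89), Coro1a (2.53) and Was (2.54) are known from blood cells. The sole gene called lower was profilin 2, Pfn2 (-0.49), and Pfn1 was at 0.46 (adjusted p = 0.0509). On leaving out needling replicate 2, 22 of the 28 were called higher and 0 lower. Pfn2 was no longer called when 1 of saline replicates 1, 2 and 3 and needling replicates 1 and 2 was left out, with adjusted p of up to 0.148.

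Intermediate filament genes changed unequally. Vimentin, Vim, the filament of mesenchymal cells and myoblasts, had 147.6, 199.3 and 229.9 CPM in saline and 807.5, 919.8 and 711.1 CPM in needled libraries. Desmin, Des, the filament of mature fibres and of myoblasts, had 3489, 3505 and 3530 CPM against 3265, 3394 and 3554 CPM. Vimentin's groups stood far apart at 2.08 ± 0.21 (adjusted p = 9.98e-05), and desmin's overlapped at -0.04 (adjusted p = 0.844). Nestin, Nes, a filament of stem cells and of muscle at its nerve and tendon junctions, rose by 0.98, and lamins Lmna and Lmnb1 of the nuclear envelope by 1.32 and 1.64. Of 23 filament, septin and tropomyosin genes 10 were called higher and 1 lower, tropomyosin Tpm1 of the sarcomere at -0.66. Leaving out any 1 of saline replicates 1, 2 and 3 and needling replicate 2 ended the call of Tpm1, at adjusted p of up to 0.146.

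Small calcium-binding S100 proteins, sugar-binding galectins and tetraspanins rose in 13 of 23 genes. S100a4 (3.52), Lgals3 (3.89) and the leukocyte tetraspanin Cd53 (3.16) had the highest differences. S100a11, S100a10, S100a6 and S100a13 rose by 1.72, 1.58, 1.49 and 0.72. The one that fell was S100a1 (-0.50), the form of muscle and heart that binds the ryanodine receptor. S100a8 and S100a9, the calcium-binding pair of neutrophils, stayed at or under 1.58 and 1 CPM in every saline and needled library. The call of S100a1 was lost without 1 of saline replicate 2 and needling replicates 1 and 2, with adjusted p of up to 0.119.

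Serine synthesis rose at 2 of its 3 steps. Phgdh (ENSMUSG00000053398, chromosome 3, 98313170 to 98339990), the enzyme of the first step from glycolysis to serine, had 3.59, 3.71 and 3.66 CPM in saline and 18.7, 18.2 and 16.2 CPM in needled libraries. Psat1, of the second step, had 3.53, 4.94 and 5.12 CPM against 30, 32 and 22.3 CPM. All needled libraries exceeded all saline ones at both genes, with log2 differences of 2.27 ± 0.20 (adjusted p = 9.37e-05) and 2.63 ± 0.29 (adjusted p = 0.000132). The last enzyme, Psph, was at -0.34 (adjusted p = 0.166).

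Enzymes that pass the carbon of serine and glycine to folate followed in part. Of 17 one-carbon genes 16 passed the low-count filter, with 7 called higher and 3 lower. The mitochondrial folate enzymes Mthfd2 and Mthfd1l rose by 1.27 and 1.97 and the glycine decarboxylase Gldc by 2.85. Of the methionine cycle, Mat2a and Mtr fell by 0.50 and 0.31 and Ahcy was at 0.30 (adjusted p = 0.0732). The cytosolic folate enzyme Mthfd1 fell by 0.30. When needling replicate 2 was left out, the 3 lower calls were lost and 5 genes were called higher. Calls that depended on at least 1 of saline replicates 1, 2 and 3 and needling replicates 1, 2 and 3 were those of Mthfd2, Gldc, Mat2a, Mtr and Mthfd1, whose adjusted p without it reached 0.12, 0.13, 0.152, 0.164 and 0.141 in that order.

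The promoters of Phgdh and Psat1 are shown as those of neighbouring steps that rose together. Phgdh lies at chr3:98339920-98340219 and Psat1 at chr19:15925010-15925309, both on the minus strand of GRCm38.p6 in RefSeq, which lists 2 starts for Psat1. Capitals mark CCAAT on the printed strand.
Phgdh: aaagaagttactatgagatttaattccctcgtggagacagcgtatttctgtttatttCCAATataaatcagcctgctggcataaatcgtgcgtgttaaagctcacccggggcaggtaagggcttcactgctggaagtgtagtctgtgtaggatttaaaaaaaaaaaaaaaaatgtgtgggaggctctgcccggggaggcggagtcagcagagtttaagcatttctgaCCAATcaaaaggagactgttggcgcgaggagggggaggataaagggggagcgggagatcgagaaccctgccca
Psat1: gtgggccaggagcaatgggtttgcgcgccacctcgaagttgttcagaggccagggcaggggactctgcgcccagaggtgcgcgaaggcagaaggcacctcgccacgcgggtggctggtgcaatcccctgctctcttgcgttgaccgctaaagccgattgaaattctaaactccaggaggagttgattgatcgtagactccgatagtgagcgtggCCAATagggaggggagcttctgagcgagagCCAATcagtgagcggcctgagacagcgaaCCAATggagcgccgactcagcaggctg
Phgdh held 2 CCAAT and Psat1 held 3, against 37% of 14423 promoters of tested genes with at least 1, searched on both strands.

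Amino acid transporters rose in 11 of 20 genes and fell in 2. The large neutral amino acid carrier Slc7a5 had 2.25, 5.84 and 5.07 CPM in saline and 20.9, 20 and 16.1 CPM in needled libraries. Its groups did not overlap and it rose by 2.10 ± 0.28 (adjusted p = 0.000214), and its heavy chain partner Slc3a2 by 0.58. The glutamine carrier Slc38a1 rose by 2.87, the neutral carrier Slc1a4 by 1.55, the lysosomal Slc36a1 by 1.09 and the arginine and lysine carrier Slc7a1 by 0.92. Slc38a3 and Slc38a4, system N and system A glutamine and alanine carriers, fell by 0.60 and 0.85. Without needling replicate 2, 9 rose and 1 fell. The calls of Slc38a3 and Slc38a4 were each lost without at least 1 of saline replicates 1, 2 and 3 and needling replicates 1, 2 and 3, with highest adjusted p of 0.119 and 0.0725 in that order.

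Breakdown of leucine, isoleucine and valine, a pathway of fibre mitochondria, went one way. All 22 genes had a negative estimate, 8 were called lower and 0 higher, and the median log2 difference was -0.39. The 8 were Aldh6a1 (-0.59), Pcca (-0.55), Mcee (-0.53), Dld (-0.49), Auh (-0.47), Mccc1 (-0.45), Pccb (-0.43) and Hibadh (-0.42), most of them enzymes of the later steps. The first enzyme, the transaminase Bcat2, was at -0.13 (adjusted p = 0.533), and the dehydrogenase subunit Bckdhb at -0.29 (adjusted p = 0.284). No gene of the list was called without needling replicate 2. At least 1 of saline replicates 2 and 3 and needling replicates 1 and 2, when left out, ended each of the calls of Aldh6a1, Pcca, Mcee, Dld, Auh, Mccc1, Pccb and Hibadh, and the highest adjusted p were 0.149, 0.0842, 0.0964, 0.0879, 0.0631, 0.107, 0.154 and 0.122 in that order.

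Polyamine genes changed in both directions. Smox, spermine oxidase, had 1697, 933.1 and 993 CPM in saline and 552.4, 416.7 and 514 CPM in needled libraries, and fell by 1.29 ± 0.23 (adjusted p = 0.00134), with Amd1 at -1.12 and its near copy Amd2 at -1.16, whose reads cannot be told apart. Srm, Sat1 and Paox, named after their values were seen, rose by 0.83, 1.32 and 0.78, Odc1, Azin1 and Azin2 were not called, and Srm was no longer called without saline replicate 2 or 3 or needling replicate 2, with adjusted p of up to 0.103.

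Cholesterol genes rose by small amounts where they were called. Of 20 sterol synthesis and uptake genes 8 were higher and 0 lower, with a median of 0.33. These held the regulator Srebf2 (0.87), the epoxidase Sqle (1.28) and the later enzymes Cyp51 (0.83), Msmo1 (0.82) and Ebp (0.74). On leaving out needling replicate 2, there were 4. Soat1 (ENSMUSG00000026600, chromosome 1, 156424525 to 156474331), which esterifies cholesterol for storage in droplets, changed far more. It had 3.02, 4.49 and 5.37 CPM in saline and 38.1, 36.8 and 26.6 CPM in needled libraries, a log2 difference of 2.97 ± 0.26 (adjusted p = 9.37e-05), and every needled library was above every saline one. Sqle, Cyp51 and Msmo1 each lost their call on leaving out at least 1 of saline replicates 1, 2 and 3 and needling replicate 2, with highest adjusted p of 0.0703, 0.176 and 0.123 in that order.

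Sphingolipid enzymes rose in 12 of 19 tested genes of a list of 20, with 2 lower and a median of 1.25. Sgpl1, the lyase that ends the breakdown of sphingosine 1-phosphate, a lipid signal for lymphocytes and muscle stem cells, had 14.2, 18 and 21.8 CPM in saline and 71.7, 71.9 and 52.5 CPM in needled libraries. The groups did not overlap, at 1.86 ± 0.18 (adjusted p = 9.37e-05). The glycosyltransferases B4galnt1 and B4galt6 rose by 2.71 and 2.30, glucosylceramide synthase Ugcg by 1.54, serine palmitoyltransferase Sptlc2 by 1.25, and the lysosomal hydrolases Galc and Asah1 by 1.28 and 1.25. St3gal5, which makes the ganglioside GM3, fell by 0.40 and acid sphingomyelinase Smpd1 by 0.43. When needling replicate 2 was left out, the count was 12 higher and 0 lower. Without at least 1 of saline replicates 2 and 3 and needling replicates 1 and 2, the calls of St3gal5 and Smpd1 were each lost, the adjusted p reaching 0.127 and 0.0516 in that order.

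Prostanoid and leukotriene genes rose in 11 of 17 tested genes of a list of 18, and fell in none. The leukotriene arm rose in 5-lipoxygenase Alox5 (1.66), its activating protein Alox5ap (2.79), the synthase Ltc4s (1.74), the hydrolase Lta4h (0.32) and the receptor Cysltr1 (1.30). The prostanoid arm rose in thromboxane synthase Tbxas1 (2.45), prostaglandin D synthases Hpgds (2.25) and Ptgds (2.24), and the receptors Ptger2 (3.23) and Ptgir (0.94). The cyclooxygenases Ptgs1 and Ptgs2, which start that arm, were at 0.53 (adjusted p = 0.083) and 1.05 (adjusted p = 0.181). Many of these enzymes are known from macrophages, whose summed marker level rose beside them as given above, and its part in these values was not tested. Without needling replicate 2, 8 were called higher. Calls that depended on at least 1 of saline replicates 1, 2 and 3 and needling replicates 2 and 3 were those of Lta4h and Ptgir, whose adjusted p without it reached 0.189 and 0.0829 in that order.

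Membrane excitability channels fell in 13 of 23 genes and rose in 2. Scn4a, the sodium channel of adult fibres, had 717, 679 and 720.1 CPM in saline and 451.9, 369.9 and 556.6 CPM in needled libraries, with no overlap, at -0.62 ± 0.17 (adjusted p = 0.0188). The lower count was 6 without needling replicate 1 or 2 or saline replicate 3. Scn4a was no longer called when 1 of saline replicate 3 and needling replicates 1 and 2 was left out, with adjusted p of up to 0.08.

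Nos1 and Gucy1a1, of nitric oxide and cyclic GMP signalling and named after their values were seen, fell. Nos1 (ENSMUSG00000029361, chromosome 5, 117781032 to 117958840), the nitric oxide synthase that fibres hold at the sarcolemma, had 142.6, 117.1 and 109 CPM in saline and 69.5, 51.1 and 71.2 CPM in needled libraries. Gucy1a1, a subunit of the soluble guanylate cyclase that nitric oxide activates, had 9.24, 8.48 and 5.32 CPM against 3.63, 3.68 and 3.15 CPM. The needled libraries lay below the saline ones at both genes, at -0.94 ± 0.14 (adjusted p = 0.000413) and -1.13 ± 0.20 (adjusted p = 0.00132). Aqp4, a water channel that sits with Nos1 in the dystrophin complex, fell by 0.87. Other genes of cyclic GMP signalling were not called, with the phosphodiesterases Pde5a and Pde2a at 0.33 (adjusted p = 0.294) and -0.03 (adjusted p = 0.952) and the natriuretic peptide receptor Npr1 at -0.29 (adjusted p = 0.141), while the receptor Npr2 fell by 0.56. Npr2 was no longer called without saline replicate 2 or needling replicate 1 or 2, with adjusted p of up to 0.0662.

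Kcnj8 and Vegfa, the second named after its values were seen, were also lower. Kcnj8, a member of the pericyte list and the pore of the ATP-sensitive potassium channel of pericytes and vascular smooth muscle, had 17.6, 17.4 and 16.2 CPM in saline and 7.69, 8.84 and 8.44 CPM in needled libraries. Its groups lay apart, at -1.03 ± 0.12 (adjusted p = 0.000121). Vegfa, the main growth factor of capillaries and abundant in fibres, had 246.9, 277.6 and 264.7 CPM against 154.1, 127.6 and 162.2 CPM, with no overlap, at -0.83 ± 0.12 (adjusted p = 0.000413). The endothelial markers summed to 323.2 to 391.1 CPM in saline and 251.1 to 295.1 CPM in needled libraries, and their part in these falls was not tested. Of the marker lists, 5 of 10 endothelial and 4 of 10 pericyte and smooth muscle genes, Kcnj8 among the latter, were called lower and none higher. On leaving out 1 library, these counts fell to as few as 1 and 3. Members not called included the pericyte receptor Pdgfrb at 0.04 (adjusted p = 0.908) and the endothelial Vwf at -0.04 (adjusted p = 0.866). Outside these lists, the endothelin receptor Ednrb rose by 1.17 and the peptide Apln by 2.07. The call of Apln was lost without saline replicate 1 or 3 or needling replicate 2, with adjusted p of up to 0.0957.

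Enzymes that make and degrade cyclic AMP, a second messenger, moved in 9 of 23 genes. Of the 23 tested phosphodiesterases, adenylate cyclases and anchors 7 were called lower and 2 higher. The phosphodiesterases Pde4a, Pde4d and Pde7a fell by 0.85, 0.78 and 0.62, the cyclases Adcy9, Adcy6 and Adcy2 by 0.61, 0.57 and 0.43, and the mitochondrial anchor Akap1 by 0.55. The cyclases Adcy7 and Adcy3 rose by 1.81 and 1.36. On leaving out needling replicate 2, 4 were lower and 2 higher. The calls of Pde7a, Adcy2 and Akap1 were each lost without at least 1 of saline replicates 1, 2 and 3 and needling replicates 1 and 2, with highest adjusted p of 0.0717, 0.145 and 0.0539 in that order.

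Receptors and channels for extracellular nucleotides and for heat or stretch rose in 8 of 25 tested genes and fell in 2. P2ry6, a UDP receptor, had 6.74, 6.51 and 8.73 CPM in saline and 24.2, 24.9 and 19.4 CPM in needled libraries, with no overlap and a rise of 1.64 ± 0.16 (adjusted p = 9.37e-05). The ATP-gated channels P2rx7 and P2rx4 rose by 1.81 and 1.73 and the cation channel Trpv2 by 2.61. P2ry12, a receptor of microglia and platelets, rose by 2.12. Trpm2, a channel opened by oxidant stress, had 0, 0 and 0.1 CPM against 2.54, 2.45 and 1.72 CPM. The 2 that fell, P2rx6 (-0.57) and P2rx1 (-1.62), were not called without needling replicate 2. At least 1 of saline replicates 1 and 2 and needling replicates 1, 2 and 3, when left out, ended each of the calls of P2rx6 and P2rx1, and the highest adjusted p were 0.06 and 0.306 in that order.

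Transcription factors of development rose in 10 of 31 tested genes and fell in 3, against 18.2% higher and 10.8% lower over all genes. The share that fell was thus near that of all genes. Hmga2, a chromatin protein of embryonic and dividing stem cells, had 0, 0.281 and 0.301 CPM in saline and 5.98, 5.65 and 2.84 CPM in needled libraries, with no overlap, at 4.53 ± 0.63 (adjusted p = 0.000293). Sox11 rose by 3.64, Runx3 by 2.77, Prrx2 by 1.99, Runx2 by 1.81 and Snai2 by 1.39. The 3 that fell act in fibres, with Sox6 (-0.50) and Eya1 (-0.66) known in fast fibre programmes and Tbx15 (-0.54) in glycolytic fibres. Only 1 gene of the list was called lower without needling replicate 2 or saline replicate 1, and without needling replicate 3 there were 5. Snai2, Sox6 and Tbx15 each lost their call on leaving out at least 1 of saline replicates 1, 2 and 3 and needling replicates 1 and 2, with highest adjusted p of 0.0539, 0.0999 and 0.17 in that order.

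Hox genes, which hold positional identity in adult limb muscle, went down where they were called. Of 18 tested genes 6 were called lower and 0 higher, with a median of -0.44. Hoxa10 had 26.3, 25.3 and 26.9 CPM in saline and 17, 16.4 and 19.3 CPM in needled libraries, groups well apart, at -0.58 ± 0.10 (adjusted p = 0.0012). The others were Hoxa13 (-0.65), Hoxd8 (-0.61), Hoxd9 (-0.58), Hoxc10 (-0.49) and Hoxc9 (-0.44). When needling replicate 2 was left out, only 2 were called. Without at least 1 of saline replicates 1, 2 and 3 and needling replicates 1, 2 and 3, the calls of Hoxa13, Hoxd8, Hoxd9 and Hoxc9 were each lost, the adjusted p reaching 0.18, 0.133, 0.0837 and 0.14 in that order.

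Nuclear receptors and their coactivators fell in 10 of 30 genes and rose in 2. The retinoid receptor genes Rarb and Rxrg were at -0.75 and -0.62, the clock-linked Rora and Nr1d2 at -0.51 and -0.47, and Esrra, which drives mitochondrial genes, at -0.49. The coactivator Ppargc1a, a driver of mitochondrial gene expression, had 42.1, 50.5 and 55.6 CPM in saline and 27.4, 24.8 and 39.1 CPM in needled libraries, without overlap, and fell by 0.70 (adjusted p = 0.00532). The vitamin D receptor Vdr rose by 2.51. Without needling replicate 2 there were 2 lower and 0 higher. Calls that depended on at least 1 of saline replicates 1, 2 and 3 and needling replicates 1, 2 and 3 were those of Rarb, Rxrg, Rora, Nr1d2, Esrra and Vdr, whose adjusted p without it reached 0.0775, 0.162, 0.135, 0.161, 0.132 and 0.11 in that order.

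Chromatin regulators changed in 15 of 32 genes. In all 11 were called higher, above the 18.2% of all genes, and 4 lower, near the 10.8% of all genes. The maintenance methylation pair Dnmt1 and Uhrf1 rose by 1.25 and 3.99, the Polycomb methyltransferase Ezh2 by 1.09, the high-mobility protein Hmgb2 by 2.47 and the histone variants H2afx and H3f3b by 1.09 and 0.96. Muscle methyltransferases Smyd1 and Smyd2 fell by 0.48 and 0.55, and Smarcd3, the subunit that brings chromatin remodelling to muscle genes, by 0.64. Uhrf1, Dnmt1 and Ezh2 are high in dividing cells, whose markers rose in 20 of 20 genes, and the part of division in these values was not tested. The lower count was 2 without needling replicate 2. Leaving out any 1 of saline replicate 1 and needling replicate 2 ended the call of Smyd2, at adjusted p of up to 0.072.

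Genes of nuclear import, splicing and RNA binding changed in 9 of 24 tested genes, 5 higher and 4 lower, the higher share near the 18.2% of all genes. Ptbp1, which represses exons of mature muscle and neurons, had 13.3, 16.6 and 16.1 CPM in saline and 38.2, 44.4 and 31.4 CPM in needled libraries, with no overlap, and rose by 1.31 ± 0.21 (adjusted p = 0.000847). Mbnl1, Rbfox1, Rbm24 and Rbm38, which drive adult muscle splicing, fell by 0.43, 0.48, 0.44 and 0.46. The other 4 that rose were the splicing factors Hnrnpa1 (0.72) and Srsf3 (0.50), the cold-induced Rbm3 (0.94) and Pabpc1 (0.68), which binds poly(A) tails. With needling replicate 2 left out, 3 were higher and none of the 4 lower ones was called. The calls of Mbnl1, Rbfox1, Rbm24, Rbm38, Srsf3 and Pabpc1 were each lost without at least 1 of saline replicates 1, 2 and 3 and needling replicates 1 and 2, with highest adjusted p of 0.139, 0.0933, 0.176, 0.103, 0.0765 and 0.112 in that order.

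Guidance, adhesion and nerve genes changed in both directions. Of 33 tested axon guidance genes 9 were called higher and 1 lower. The semaphorin receptor Plxnb2 had 16.8, 20.9 and 23.7 CPM in saline and 76.6, 88.3 and 62.7 CPM in needled libraries, with no overlap, and rose by 1.89 (adjusted p = 0.000103). Plxnc1 rose by 2.37, Epha2 by 1.27, Ephb2 by 1.26 and the neuropilins Nrp2 and Nrp1 by 0.96 and 0.65. Synaptic and neural adhesion genes rose in 6 of 15 tested genes and fell in 2, against 18.2% higher and 10.8% lower over all genes. Among the rises were Ncam1 (1.36), an adhesion molecule of denervated and growing muscle, and Nrcam (2.6). The falls were Neto2 (-1.17) and Cadm4 (-1.02), and 2 or 3 genes were called lower on leaving out any 1 library. Galanin, Gal, a neuropeptide, had 0.321, 3.03 and 2.91 CPM in saline and 23.5, 21 and 17 CPM in needled libraries, with no overlap, at 3.26 ± 0.50 (adjusted p = 0.000823). On leaving out needling replicate 2, the guidance count was 5 higher and 1 lower and the synaptic count 3 higher, as also without saline replicate 3 or needling replicate 3. At least 1 of saline replicates 1, 2 and 3 and needling replicates 1 and 2, when left out, ended each of the calls of Ephb2 and Nrp1, and the highest adjusted p were 0.159 and 0.0511 in that order.

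Neurotrophic genes went the other way, with 6 of 20 tested genes lower and 1 higher. The ligands Nrg4, Ntf5 and Nrtn were at -1.25, -1.0 and -0.89, and the receptors Ntrk2, Lifr and Cntfr at -0.87, -0.49 and -0.42. Ngfr, the low-affinity neurotrophin receptor, was at 1.32. When needling replicate 2 was left out, there were 3 lower and 0 higher. Nrg4, Nrtn, Ntrk2, Cntfr and Ngfr each lost their call on leaving out at least 1 of saline replicates 1, 2 and 3 and needling replicates 1, 2 and 3, with highest adjusted p of 0.125, 0.125, 0.0548, 0.187 and 0.0716 in that order.

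Developmental signal pathways moved in single members. In the Notch pathway the receptor Notch2 (0.95), the ligand Dll1 (1.01), the modifier Lfng (1.21), the effector Rbpj (0.50) and Hes6 (1.0) rose, and the ligands Dll4 (-0.82), of endothelium, and Jag2 (-0.38) fell. In the Wnt pathway 5 of 25 tested genes rose and 2 fell, near the 18.2% and 10.8% of all genes. The rises included the secreted antagonist Sfrp2 (2.28) and the receptors Fzd1 (0.90) and Fzd2 (0.92), and the falls were Fzd7 (-0.72) and Sfrp5 (-1.0). Of 18 tested Hedgehog and Hippo genes 4 rose and 2 fell, also near the shares of all genes. Ccn2 (1.51), a target of YAP, and Gli3 (1.0) were among the rises, and Hhip (-1.85), a Hedgehog antagonist, among the falls. The counts higher and lower without needling replicate 2 were 3 and 0 in the Notch pathway, 4 and 1 in the Wnt pathway and 3 and 0 among Hedgehog and Hippo genes, and without needling replicate 3 the Wnt pathway had 4 lower. Without at least 1 of saline replicates 1, 2 and 3 and needling replicates 1, 2 and 3, the calls of Notch2, Dll1, Dll4, Jag2, Fzd7 and Hhip were each lost, the adjusted p reaching 0.083, 0.0633, 0.0592, 0.106, 0.155 and 0.166 in that order.

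Genes for sending out proteins and for making glycosaminoglycans rose in part. Of 30 genes of the translocon and coat vesicles 12 were called higher and 1 lower, Sar1b (-0.59). Sec61a1, the pore through which new secreted proteins enter the endoplasmic reticulum, had 19.2, 20.5 and 18.5 CPM in saline and 44.6, 54.2 and 39.2 CPM in needled libraries, and rose by 1.24 ± 0.15 (adjusted p = 0.000142) with no overlap. Kdelr3 rose by 1.33, the coat protein Sec24d by 1.28, Kdelr2 by 0.75 and the oligosaccharide transferase subunits Ddost and Ostc by 0.60 and 0.78. Of 30 glycosaminoglycan enzymes 13 rose and 0 fell. Ugdh, which makes the sugar nucleotide for hyaluronan and proteoglycans, had 10.9, 12.7 and 11.4 CPM against 25.9, 29.1 and 27.7 CPM, without overlap, a rise of 1.24 ± 0.14 (adjusted p = 0.000118). The hyaluronan synthases Has1 and Has2 rose by 2.33 and 1.01 and the heparan endosulfatase Sulf2 by 1.47. Calls that depended on at least 1 of saline replicates 1, 2 and 3 and needling replicates 2 and 3 were those of Sar1b, Has1 and Has2, whose adjusted p without it reached 0.0764, 0.0626 and 0.126 in that order.

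Protease control and clotting genes rose in part. Of 16 tested coagulation and plasminogen genes 7 were called higher and 0 lower, with clotting factors F7 (4.05) and F10 (3.79), the urokinase receptor Plaur (2.65), annexin Anxa2 (2.11) and transglutaminase F13a1 (1.83). Of 14 tested protease inhibitors 5 rose, led by Slpi (3.33), Serpinb1a (2.17) and Serpina3n (1.82), and Serpine2 fell by 0.37. The inhibitors had 2 higher and 0 lower without needling replicate 2. The calls of F10, Slpi, Serpina3n and Serpine2 were each lost without at least 1 of saline replicates 1, 2 and 3 and needling replicates 2 and 3, with highest adjusted p of 0.142, 0.0648, 0.0995 and 0.142 in that order.

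Death and survival genes rose in 18 of 30 and fell in 2. The necroptosis genes Ripk3, Mlkl and Ripk1 rose by 2.38, 1.87 and 1.42, the inflammatory caspases Casp1 and Casp4 by 1.92 and 1.34, and the BH3-only genes Pmaip1 and Bid by 2.58 and 2.50. Survival genes were among those that rose, with Bcl2a1b (2.80), Bcl2a1d (2.45), Birc3 (0.69) and Bcl2l1 (0.51), of which Bcl2a1b and Bcl2a1d are near copies whose reads may be shared. Bnip3, of mitochondria in fibres, fell by 0.52. Autophagy genes had 6 of 28 lower, such as the initiating kinase Ulk1 (-0.57), and 1 higher, Tfec (3.66). On leaving out needling replicate 2, the death and survival count was 12 higher and 1 lower and the autophagy count 1 higher and 2 lower. At least 1 of saline replicates 1, 2 and 3 and needling replicates 1 and 2, when left out, ended each of the calls of Pmaip1, Ulk1, Birc3 and Bcl2l1, and the highest adjusted p were 0.0518, 0.163, 0.0653 and 0.0947 in that order.

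Mitochondrial carriers changed in 9 of 21 genes. Of these 4 were higher, near the 18.2% of all genes, and 5 lower, above the 10.8% of all genes. Without needling replicate 2 these counts were 4 and 1. The lower count was also 1 without saline replicate 2. Ucp2, an inner membrane carrier of immune cells, had 16, 27.9 and 28.9 CPM in saline and 123.8, 137.6 and 96.9 CPM in needled libraries, with no overlap, at 2.30 ± 0.26 (adjusted p = 0.000155), whereas Ucp3, its muscle relative, fell by 0.65. The calcium-regulated Slc25a24 rose by 1.73, and the phosphate carrier Slc25a3 and the aspartate carrier Slc25a12 fell by 0.43 and 0.66. Of 16 genes of NAD and vitamin metabolism 3 rose and 4 fell, and without needling replicate 2 these were 1 and 3. Here too the share that rose was near that of all genes and the share that fell above it. In NAD metabolism the fibre kinase Nmrk2, which salvages nicotinamide riboside, had 412.6, 354.7 and 316.5 CPM in saline and 207.1, 177.2 and 170.1 CPM in needled libraries, and fell by 0.97 ± 0.19 (adjusted p = 0.00227) with the groups apart. Nampt fell by 0.49 and Bst1, a cyclase of leukocytes, rose by 2.92. Ucp3, Slc25a3 and Slc25a12 each lost their call on leaving out at least 1 of saline replicates 1, 2 and 3 and needling replicates 1, 2 and 3, with highest adjusted p of 0.146, 0.154 and 0.107 in that order.

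Of 22 glutathione and NRF2 genes 4 rose and 2 fell, near the 18.2% and 10.8% of all genes, and without needling replicate 2 these were 2 and 0. Hmox1, which degrades heme, had 13.6, 11.2 and 11.7 CPM in saline and 41.1, 64.8 and 110.8 CPM in needled libraries, with wide spread among the needled ones, at 2.57 ± 0.60 (adjusted p = 0.0124). Gpx1 and Sod3 rose by 1.16 and 1.07, and Mgst3 and Sod2 fell by 0.52 and 0.58. Secreted factors of muscle changed in 9 of 27 tested genes, 7 higher and 2 lower, a share near the 29.0% of all genes called in either direction. Gdf15 (3.82), Apln (2.07), Metrnl (1.98) and Angptl4 (1.74) were among the higher ones and myostatin, Mstn (-0.57), among the lower. The secreted factors had 5 higher and 0 lower without needling replicate 2. Lists with few calls were the aminoacyl-tRNA synthetases (2 higher and 1 lower of 20), MAP kinase phosphatases (3 and 1 of 26) and connexins, pannexins and claudins (1 and 1 of 11). Without at least 1 of saline replicates 1, 2 and 3 and needling replicates 1 and 2, the calls of Sod3, Mgst3, Sod2, Apln and Mstn were each lost, the adjusted p reaching 0.137, 0.164, 0.0754, 0.0957 and 0.11 in that order.

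Fuel, hormone and vitamin genes gave short lists of calls, given beside the 18.2% higher and 10.8% lower of all genes. Among 14 glucose, lactate and nucleoside transporters 4 rose, led by the lysosomal sugar carrier Slc2a6 (2.96) and the nucleoside carrier Slc29a3 (1.94), and 3 fell, with the lactate exporter Slc16a3 at -0.68. Of 22 insulin and glycogen genes 2 rose and 4 fell, among them the insulin receptor Insr (-0.57), the AMP kinase subunit Prkaa2 (-0.60) and, rising, the receptor adaptor Grb10 (1.09). Of 12 tested retinoid genes 4 rose and 0 fell, with the reductases Dhrs9 (4.05) and Dhrs3 (0.90) and the retinoic acid maker Aldh1a2 (0.98). Among 16 metal genes 5 rose and 1 fell, with metallothionein Mt3 at 2.14 and the zinc carrier Slc39a6 at 1.21. Of 5 tested muscle micropeptides the fusion peptide Mymx rose by 2.91 and Mrln, which restrains the calcium pump, fell by 0.61. Of 19 tested long noncoding RNAs 5 rose, among them Gas5 (0.46), Snhg1 (0.76), Snhg12 (0.62) and Rian (1.05). The numbers higher and lower without needling replicate 2 were 3 and 1 for these glucose, lactate and nucleoside transporters, 2 and 0 for insulin and glycogen genes, 1 and 0 for retinoid genes, 2 and 1 for metal genes, 0 and 1 for micropeptides and 2 and 0 for the noncoding RNAs. Without saline replicate 3, 1 retinoid gene, 2 metal genes and 1 noncoding RNA were called higher. Calls that depended on at least 1 of saline replicates 1, 2 and 3 and needling replicates 1 and 2 were those of Insr, Prkaa2, Dhrs3, Aldh1a2, Mt3, Mymx, Gas5, Snhg1 and Snhg12, whose adjusted p without it reached 0.078, 0.0877, 0.12, 0.132, 0.0806, 0.0714, 0.0572, 0.0781 and 0.0902 in that order.

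**Figure D3:**
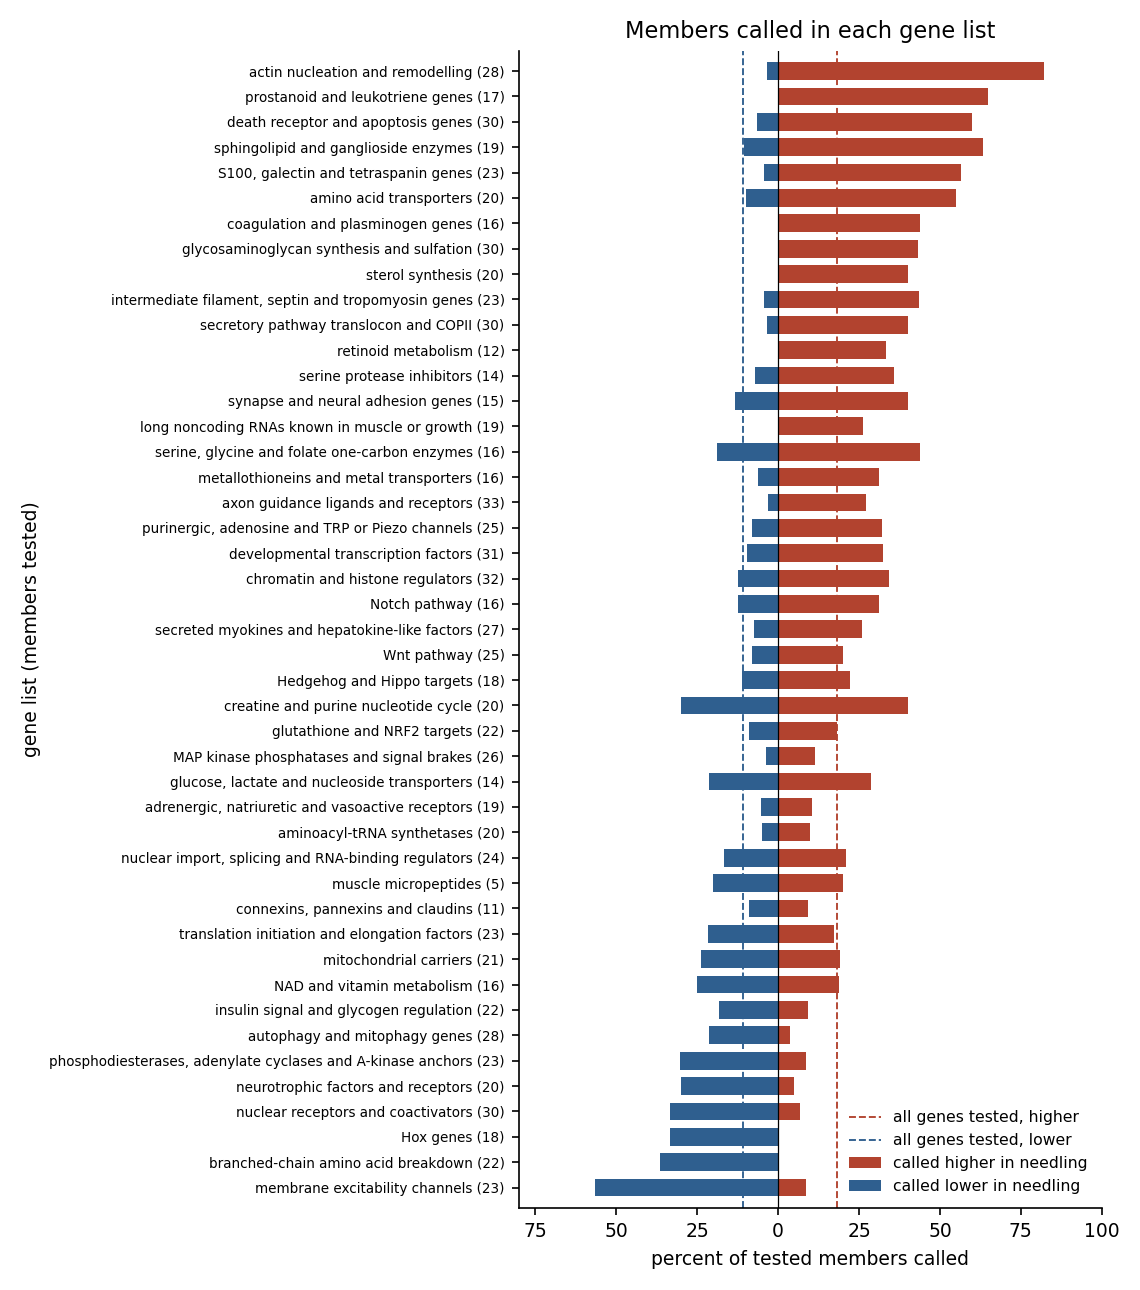
For each gene list, bars to the right and left give the percent of tested members called higher and called lower in needled muscle, and the dashed lines give the 18.2% and 10.8% of all genes. Actin, sphingolipid and prostanoid genes stand far above the line for higher calls, and excitability channels, breakdown of branched-chain amino acids, Hox genes and nuclear receptors above that for lower calls.

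Counts over whole gene families, listed with earlier results known, are given beside the 18.2% higher and 10.8% lower of all genes, and no difference was tested. Receptors of the interleukins were called higher in 13 of 27 and of the tumour necrosis factor family in 7 of 16, with 0 lower in each. ADAM and ADAMTS proteases rose in 11 of 27, integrins in 8 of 29, tubulins in 8 of 19 and unconventional myosins in 7 of 18. Potassium channels had 5 higher and 12 lower of 49, phosphodiesterases 1 and 6 of 21, and ankyrin repeat genes 0 and 8 of 49. Zinc finger genes of the Zfp series, a large family of DNA-binding proteins, had 11 higher and 28 lower of 341. Solute carriers had 44 higher and 26 lower of 242, near the shares of all genes. Many of these counts depended on needling replicate 2. Without it, the Zfp genes had 7 higher and 2 lower, solute carriers 32 and 10, potassium channels 4 and 6, phosphodiesterases 1 and 2, and ankyrin repeat genes 0 and 5. The lower count was also 10 for Zfp genes without saline replicate 1, 6 for potassium channels without saline replicate 1 and 2 for phosphodiesterases without saline replicate 1. Tumour necrosis factor receptors had 4 higher without saline replicate 3.

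The called share was lower for long intergenic and antisense RNAs than for protein-coding genes. This difference, and the part of transcript level in it, was not tested. Of 13607 protein-coding genes 31.5% were called, of 415 long intergenic RNAs 14.5% and of 398 antisense RNAs 11.3%. The lincRNAs had 29 higher and 31 lower and the antisense genes 16 and 29, but antisense counts cannot be told apart from those of the partner gene without strand. Lockd (3.94), a transcript beside the cell cycle inhibitor gene Cdkn1b, and AI662270 (2.98) rose, and 0610009L18Rik (-0.91) and 1810014B01Rik (-0.66) fell. Irx3os fell by 1.59 and overlaps Irx3.

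With the genes of the marker lists set aside, the 14 largest rises among called, non-overlapping protein-coding genes at 5 CPM or more in needled muscle included secreted, immune and division genes. Of the genes set aside, Cdk1 and Ccnb1 rose by 4.21 each. Osteopontin, Spp1, a secreted phosphoprotein, had 1.99, 12.7 and 26.8 CPM in saline and 549, 861.3 and 235.5 CPM in needled libraries, 5.30 on the log2 scale (adjusted p = 0.012). The interleukin 1 receptor antagonist Il1rn (5.19), the C-type lectins Clec4d and Clec4n (4.36 each), the secreted Cthrc1 (4.30), the interleukin 7 receptor Il7r (4.28), the glycosyltransferase Galnt6 (4.23), Cd300lf (4.07), F7 (4.05) and the macrophage elastase Mmp12 (3.95) followed, with the division genes Trip13, Cenpf, Pbk and Uhrf1 between 3.99 and 4.16. The calls of Il1rn, Clec4d and Cd300lf were each lost without at least 1 of saline replicates 1, 2 and 3 and needling replicate 2, with highest adjusted p of 0.0792, 0.0519 and 0.0524 in that order.

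The largest falls under the same filter, with 5 CPM or more in saline muscle, were small beside these. Outside this filter some falls were larger, and over all genes called lower 5 fell at least 4-fold. Smox led at -1.29, followed by Igfals (-1.26), which stabilises insulin-like growth factors in blood, the calcium channel subunit Cacna2d4 (-1.22), the protease inhibitor Timp4 (-1.20), the receptor auxiliary protein Neto2 (-1.17), Srcin1 (-1.17), Amd2 (-1.16), the galactosidase relative Glb1l2 (-1.14), Gucy1a1 (-1.13), Trarg1 (-1.12), which acts in glucose transporter traffic, Amd1 (-1.12) and the synaptotagmin Syt3 (-1.11). At least 1 of saline replicates 1 and 2 and needling replicates 1, 2 and 3, when left out, ended each of the calls of Cacna2d4, Glb1l2, Trarg1 and Syt3, and the highest adjusted p were 0.118, 0.138, 0.0992 and 0.109 in that order.

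By change in level the order differed. The cathepsin gene Ctsb went from 413.6 to 1428 CPM on average, the lysosomal Psap from 1139 to 2128 CPM, Apoe, which carries lipid, from 214.2 to 1172 CPM, actin Actb from 301.9 to 756.5 CPM and Ctsd from 381.4 to 802.8 CPM. Among the falls were Tpm1 from 16106 to 10206 CPM, Pygm from 8822 to 4885 CPM, Ttn from 10788 to 6969 CPM, Myl1 from 9652 to 6033 CPM and the mitochondrially encoded mt-Nd1 from 15416 to 10303 CPM. The libraries' share of mitochondrially encoded genes in raw counts was 8.85 to 10.7% in saline and 7.12 to 9.37% in needled muscle, with overlap. On the TMM scale of the levels above, these genes summed to 9.3 to 11.1% and 5.57 to 8.63% of the nominal CPM total, without overlap. These sums are scaled levels and not shares, because TMM-scaled CPM need not add to the same total in each library. Ttn, Myl1 and mt-Nd1 each lost their call on leaving out at least 1 of saline replicates 1, 2 and 3 and needling replicates 1 and 2, with highest adjusted p of 0.0917, 0.0971 and 0.104 in that order.

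Values of the injured, unneedled muscle stood between those of saline and needled muscle for most called genes. Its mean lay between theirs in 2839 of the 2853 genes called higher and in 1688 of the 1703 called lower. Needled against injured muscle gave 0 called genes, with a smallest adjusted p of 0.0983, that of Ugdh, and 2450 genes at an unadjusted p under 0.05. Injured against saline muscle gave 633 called genes, 4.03% of those tested. These comparisons share libraries with needled against saline, so the counts are given side by side and not as support. Ugdh had 13.8, 17.3 and 13 CPM in the injured libraries, Phgdh 12.2, 9.03 and 7.54 CPM, and Soat1 20, 17.9 and 11 CPM. At each of these genes the injured libraries lay above all saline and below all needled ones.

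**Figure D4:**
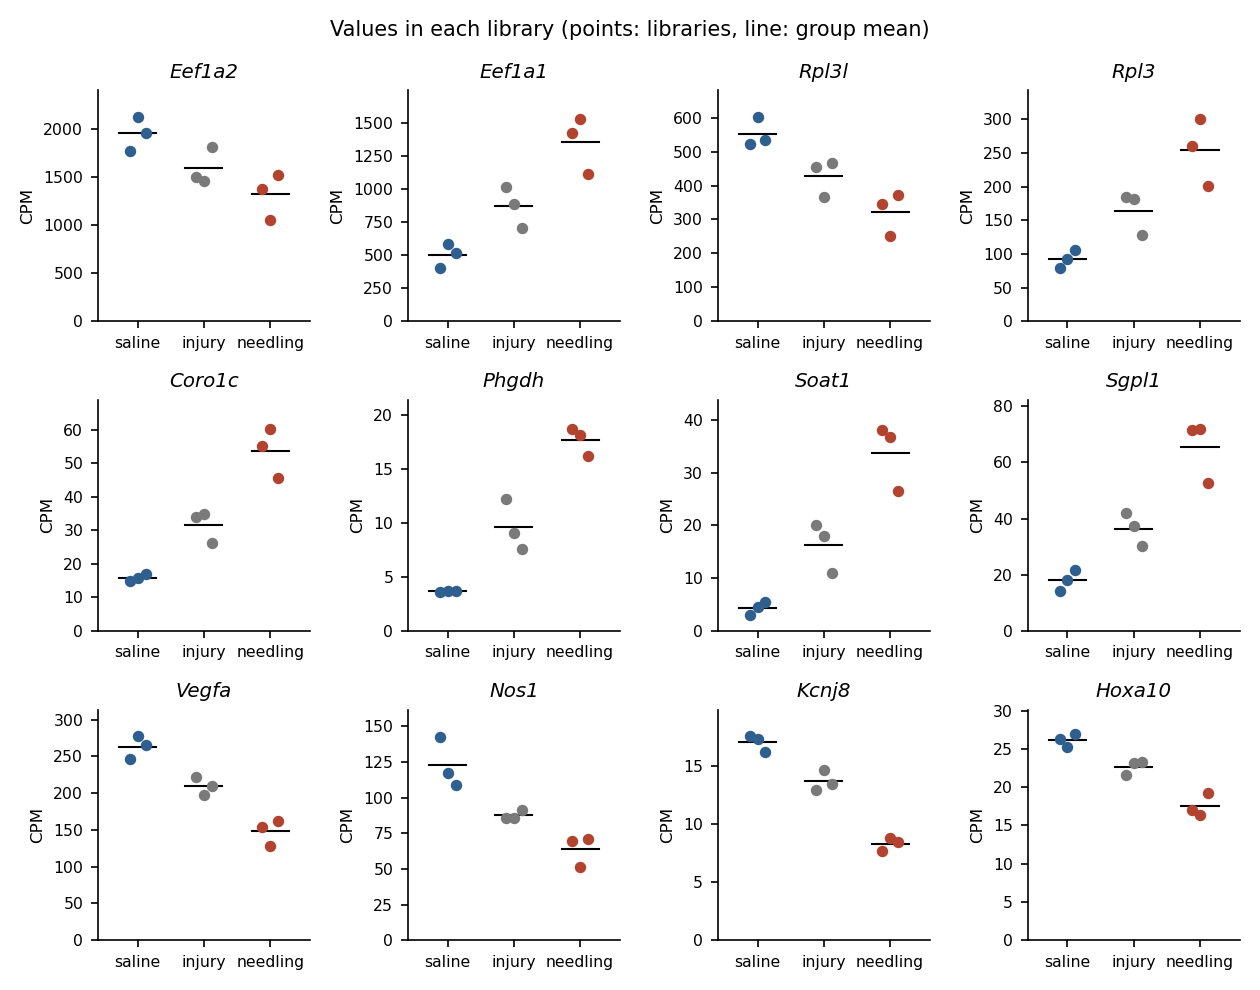
Levels (CPM) of 12 genes in each saline, injured and needled library, 1 point per library, with a line at the mean of each group. In all 12 the needled libraries are apart from the saline ones, and the mean of the injured libraries lies between their means.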

How the data were processed

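Per the labels' protocols, messenger RNA of 12 gastrocnemius samples, 4 groups of 3, was sequenced. The authors deposited whole-number counts per gene and FPKM per gene. Reads were aligned with HISAT2 2.0.5 to mm10, per the submitters' processing notes, while the sources used here name no counting tool, annotation or strand setting. Gene symbols and coordinates came from GENCODE M21 on mm10 (54495 of 54532 gene IDs matched).

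The members and the gene lists, pairs and families were chosen with earlier results of these data known, and no list was tested. Counts of all 12 libraries were fitted in edgeR 4.0.16 (R 4.3.3) by quasi-likelihood, 1 mean per group, with TMM scaling, edgeR's low-count filter and robust dispersion. It was two-sided with Benjamini-Hochberg adjustment over 15715 genes, and a gene was called at an adjusted p under 0.05. Levels are TMM-scaled CPM. Shares of a pair use the deposited FPKM values, which account for length. Counts of needled and saline libraries lay between 16385233 and 24259181. Steps were tested on simulated counts. No 2 libraries of a group agreed within sampling noise.

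Named genes were the 14 largest rises and falls among called, non-overlapping protein-coding genes at 5 CPM or more in the higher group and on no marker list, the 8 largest shifts in CPM each way, up to 4 members per list by adjusted p (2 by level where none was called), 3 noncoding genes each way and 1 gene per marker list. Others were named after their values were seen. Of those taken by this rule, mt-Co2 and mt-Nd4l were left out, since their reads may be shared with near copies or neighbours. Some further genes are not reported here, and 2 pairs that hold them were left out of the pairs after their values were seen.

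Alternatives were DESeq2 1.42.0, voom with quality weights and, on the FPKM scale, limma 3.58.1 with pseudocounts of 1 and of 0.1, median-ratio size factors, other low-count filters (none, or 1 CPM in 6 libraries), the 6 libraries alone, a replicate block, a 2-fold minimum and leaving out each library. Same-numbered saline and needled libraries deviated together at correlations of 0.216, 0.176 and 0.0413.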

Additional observations from a re-analysis of the deposited data

How the results depend on the processing

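The counts of 2853 higher and 1703 lower genes stayed within 1.5 times under median-ratio size factors, no or a stricter low-count filter, the 6 libraries alone, DESeq2 and limma on FPKM. Limma-voom with quality weights called 3039 lower, and a 2-fold minimum left 1705 higher and 120 lower. Leaving out 1 library gave 1965 to 2815 higher and 495 to 1764 lower genes, the fewest without needling replicate 2 (1965 and 495), and that fit held 53.6% of the calls. Without saline replicate 1, 2 or 3 the lower count was 1101, 933 or 1023, and without needling replicate 1 it was 990.

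A replicate block over 12 libraries called 2964 higher and 2013 lower genes, and within the 6 libraries 3169 and 2198. The correlation by number was under 0.1 for 1 of 3 pairs, so the numbers were not taken to pair the samples, although every library's highest correlation was with the one of the same number.

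Of 395 called genes named by the rule or in the text, none changed direction under any of these settings. Between 3 and 34 lost their call under the settings that kept all needled and saline libraries, and 23 to 129 on leaving out 1 library, most without needling replicate 2. Uncalled genes whose sign turned were Odc1 (-0.43 to 0.15 on leaving out 1 library, positive without saline replicate 1), Azin2 (-0.21 to 0.14, positive without saline replicate 3), Camk2d (-0.13 to 0.07, positive without saline replicate 1), Vwf (-0.14 to 0.04, positive without needling replicate 1), Pdgfrb (-0.13 to 0.19, negative without saline replicate 3 or needling replicate 2), Pde2a (0.02 by voom, and -0.25 to 0.20, positive without saline replicate 2 or needling replicate 1) and Azin1 (0.05 and 0.02 under the replicate block over 12 and over 6 libraries, 0.01 and 0.02 on log2(FPKM + 1) and log2(FPKM + 0.1), 0.07 by voom, and -0.26 to 0.27 on leaving out 1 library, positive without saline replicate 1). The cause of these differences was not tested. Of the 2004 genes under 1 CPM in every saline library 20 were called lower, and at this depth a missing call there does not show that a fall is absent.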
